A study of Homo sapiens with 33 samples.

Results

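The pocket proteins RB1, RBL1 (p107) and RBL2 (p130) and the complexes they share with E2F factors and the MuvB core were followed here in 6 established cell lines treated with palbociclib, an inhibitor of the kinases CDK4 and CDK6. The 10 genes were taken by symbol from a matrix of 58302 genes: the pocket proteins RB1, RBL1 and RBL2, the E2F partner TFDP1 (DP1), the MuvB subunits LIN9, LIN37, LIN52 and LIN54, and the transcription factors MYBL2 (B-MYB) and FOXM1. Each symbol gave 1 row, and all 10 genes reached 100 CP20M in at least 1 library. CP20M is the unit of the matrix, the authors' count of reads per gene scaled to 20000000 reads per library.

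In a cell outside the cycle, RBL2 or RBL1 joins an E2F with its DP partner and the MuvB core to form DREAM, a complex that represses cell cycle genes. When cells enter the cycle, cyclin-dependent kinases phosphorylate the pocket proteins, DREAM comes apart, and the MuvB core takes up B-MYB to form MMB, to which FOXM1 is later recruited to activate genes of G2 and mitosis. RB1 binds activating E2F factors and holds back genes needed for S phase, and palbociclib acts upstream of its phosphorylation. RBL1, MYBL2 and FOXM1 are themselves known as genes whose transcription follows the cycle.

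H2052, H2452, H28 and MSTO-211H are malignant pleural mesothelioma (MPM) lines whose proliferation is sensitive to palbociclib. Both other lines resist the drug. MPP89 comes from an MPM whose RB1 carries a mutation, and MeT-5A derives from mesothelial cells that SV40 immortalized, a virus whose large T antigen binds the pocket proteins. Cultures were kept for 9 to 10 days with palbociclib at 1 µM or with its solvent DMSO at 0.1%, in 2 pairs of libraries for H2052, 3 each for H2452, H28 and MSTO-211H, 2 for MPP89 and 1 for MeT-5A, which also had 1 untreated library. In each sensitive line, 1 culture of a 10-day experiment was kept for 48 hours without the drug (washout). The libraries are bulk samples, in which fewer cycling cells and less of an RNA per cell cannot be told apart.

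All columns of the matrix add up to nearly the same total, which hides the depth. Low values showed it for 23 of 33 libraries, at about 12800000 to 19800000 reads, where 1 read was worth at most 1.57 CP20M. The lowest value of any of the 10 genes in any library was 23 CP20M, and none was at 0. Mesothelial markers were uneven, with MSLN at 1 to 15 CP20M, CALB2 at 0 to 2 and PDPN at 0 to 4 in H28, WT1 at 0 to 2 in MeT-5A and PDPN at 0 to 3 in MSTO-211H. In H28, however, WT1 was at 107 to 360 and UPK3B at 61 to 233, and in MeT-5A CALB2 was at 397 to 534. MSLN was at 3513 to 6853 in H2052 and 2400 to 3068 in MPP89. Of markers of other cell types, PTPRC (blood cells) was at up to 42 CP20M and EPCAM (epithelium) at up to 88, with PECAM1 (endothelium) at up to 120. Over the 11 pairs of the sensitive lines, 1 of the 5 mesothelial markers, CALB2, was higher with palbociclib, by 1.69 (log2). In single lines CALB2 was called higher in H2052 and H2452, and in H2452 PDPN and UPK3B were also called higher and WT1 lower, from 248 to 303 CP20M down to 76 to 197. PECAM1 was called higher in H28, from 6 to 11 up to 19 to 22 CP20M. The part of these changes in the results was not tested.

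The bases just before the annotated start show how the members differ in E2F-type letters. Those of RBL1, MYBL2, LIN9, LIN52 and RBL2 are printed below, and those of TFDP1, LIN37 and LIN54 were searched but are not printed. A link between these letters and the changes described later was not tested. RefSeq windows of GRCh38.p14 at the main transcript start were at hand for 8 of the 10 genes. Their 250 upstream bases were searched on both strands for TTTCGCGC, TTTGGCGC and GGCGGGA, which occur in E2F sites, and for TTTGAA and TTTAAA, which occur in CHR elements, the sites that LIN54 recognises. No 2 matches overlapped. In the lines that follow, capitals mark every match, and each run is the 130 bases before the start, 5′ to 3′ on the gene's strand. A match on the other strand is read as its complement, as TCCCGCC for GGCGGGA.

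RBL1: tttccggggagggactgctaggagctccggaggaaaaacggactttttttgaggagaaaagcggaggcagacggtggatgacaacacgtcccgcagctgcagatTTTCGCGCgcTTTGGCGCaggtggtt
MYBL2: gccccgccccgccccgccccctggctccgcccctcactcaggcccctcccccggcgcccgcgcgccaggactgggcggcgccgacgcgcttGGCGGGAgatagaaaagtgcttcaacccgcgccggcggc
LIN9: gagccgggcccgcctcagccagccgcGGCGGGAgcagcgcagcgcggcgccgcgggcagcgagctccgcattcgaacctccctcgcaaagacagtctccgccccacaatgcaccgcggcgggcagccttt
LIN52: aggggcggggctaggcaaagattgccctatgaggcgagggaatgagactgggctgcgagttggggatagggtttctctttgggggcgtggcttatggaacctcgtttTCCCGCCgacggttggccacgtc
RBL2: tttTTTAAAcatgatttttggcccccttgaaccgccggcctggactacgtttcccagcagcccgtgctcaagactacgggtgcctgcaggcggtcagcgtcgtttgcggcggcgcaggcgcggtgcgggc

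The genes lie, in GRCh38 and GENCODE 44, at chr13:48303744-48599436 (RB1, ENSG00000139687), chr20:36996349-37095997 (RBL1, ENSG00000080839), chr16:53433977-53491648 (RBL2, ENSG00000103479), chr13:113584721-113641473 (TFDP1, ENSG00000198176), chr20:43667019-43716495 (MYBL2, ENSG00000101057) and chr12:2857680-2877174 (FOXM1, ENSG00000111206). The MuvB subunits are at chr1:226231149-226309869 (LIN9, ENSG00000183814), chr19:35748361-35754519 (LIN37, ENSG00000267796), chr14:74084956-74201493 (LIN52, ENSG00000205659) and chr4:82909973-83012926 (LIN54, ENSG00000189308). The windows shown are RBL1 at chr20:37095998-37096127 (minus strand), MYBL2 at chr20:43666984-43667113 (plus), LIN9 at chr1:226309165-226309294 (minus), LIN52 at chr14:74084826-74084955 (plus) and RBL2 at chr16:53434341-53434470 (plus). RBL1 had TTTCGCGC from 26 to 19 bases and TTTGGCGC from 16 to 9 bases before the start, motifs found in 0.439% and 0.55% of all 35116 windows. TFDP1 also had TTTCGCGC, on the other strand, from 120 to 113 bases before its start. GGCGGGA, on one strand or the other, was in the windows of RBL1, TFDP1, LIN9, LIN52, LIN54 and MYBL2, and in 13.5% of all windows. RBL2 and LIN37 held none of the E2F-type letters. TTTAAA, in 11.3% of all windows, occurred at 2 places before RBL2, and TTTGAA, in 13.3%, before LIN54 alone among the 8. A match is a description of the letters and was not tested for binding.

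Levels in the control libraries, those with DMSO and the untreated library of MeT-5A, differed among the 6 lines for all 10 genes by the F test in limma, as they did for 96.3% of the 17803 genes tested. MYBL2 had the widest range. It stood at 19039 CP20M in the DMSO library and 19106 in the untreated library of MeT-5A, at 3704 and 2865 in MPP89, and at 1655 to 2417 in H28. H2052 had 1513 and 945, H2452 had 1012 to 1205, and MSTO-211H had 173 to 656, so that H2052 and H2452 overlapped and the other neighbours in this order did not. The line mean of MeT-5A was 48.7-fold above that of MSTO-211H on the log2(CP20M + 10) scale. FOXM1 was likewise highest in MeT-5A, at 4891 and 5430, and lowest in MSTO-211H, at 830, 1196 and 2115, and each line below MeT-5A overlapped the next.

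RBL2 had a different order. MSTO-211H was highest, at 4301, 5142 and 4607 CP20M, and MPP89 lowest, at 895 and 1135, a 4.60-fold span. MeT-5A and H2452 overlapped, as did H2052 and H28. RBL1 was highest in MeT-5A, at 3215 and 3241, and lowest in MSTO-211H, at 212 to 363, the reverse of RBL2 in these lines. Between those extremes H28, MPP89, H2052 and H2452 followed in this order, and each overlapped the next. The line that was lowest in RBL1 and in MYBL2 was therefore the one highest in RBL2.

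Of the MuvB subunits, LIN52, LIN37 and LIN54 were higher in every control library of the 2 resistant lines than in every control library of the 4 sensitive lines. LIN52 stood at 351 to 469 CP20M against 48 to 165, LIN37 at 292 to 344 against 128 to 234 and LIN54 at 696 to 1246 against 318 to 673. With MYBL2, at 2865 to 19106 against 173 to 2417, this made 4 of the 10 genes, where 6.59% of all genes tested had every resistant library above and 2.17% every one below. None of the 10 was below. LIN9, RB1, RBL1, RBL2, TFDP1 and FOXM1 overlapped between these classes, RB1 because MPP89 had 177 and 226 and MeT-5A 2335 and 3808. With 2 resistant lines of different origin, the class was not tested and cannot be told apart from the lines.

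**Figure D1:**
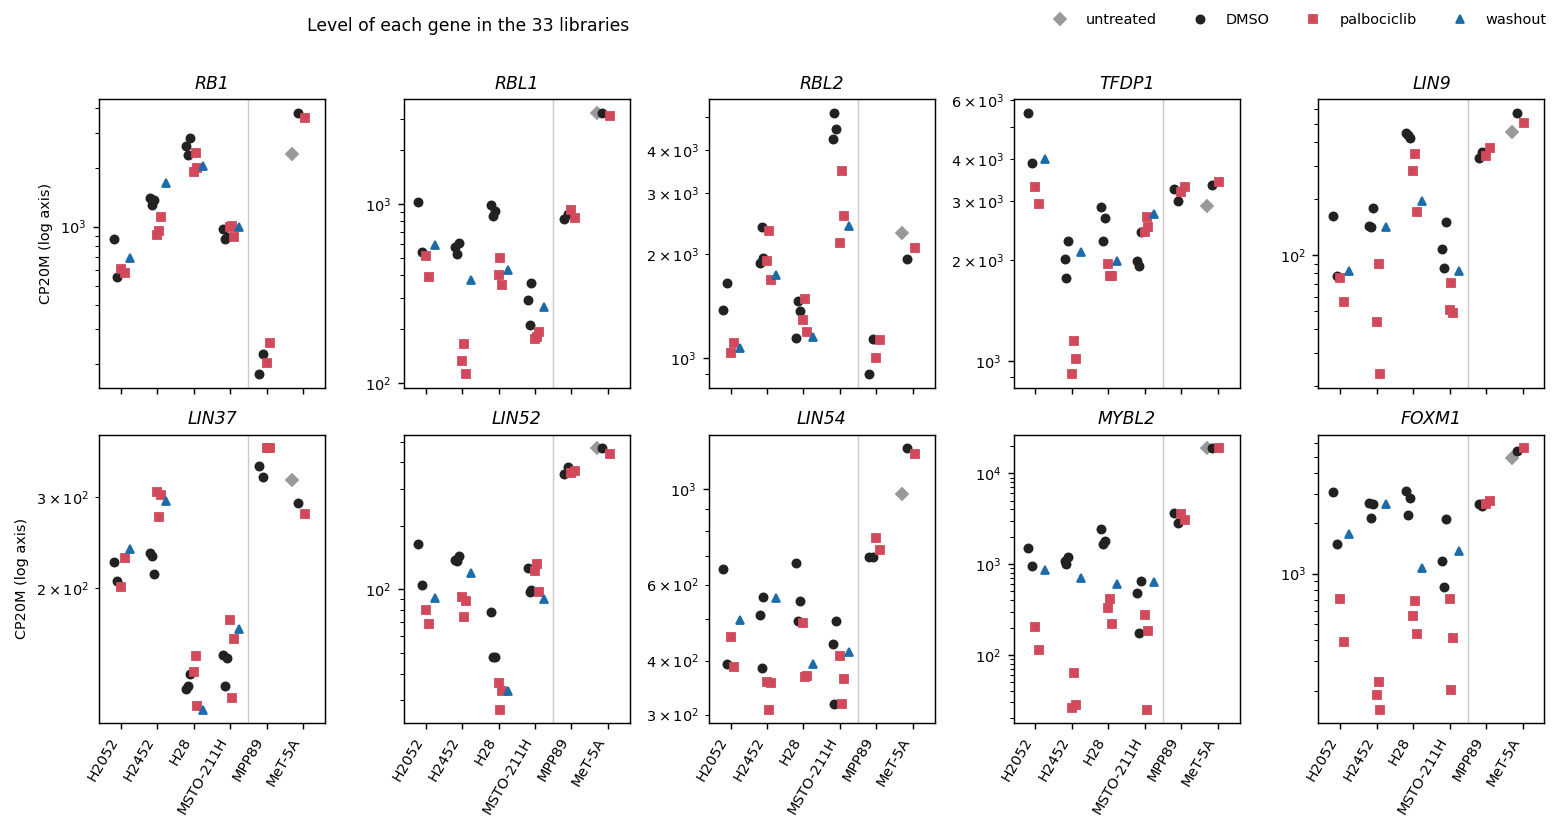
Level of each gene in every library, in CP20M on a log axis, by line and condition; the vertical line parts the 4 sensitive lines from the 2 resistant ones, and each point is 1 library. MYBL2 and FOXM1 were lower with palbociclib in the sensitive lines, with an overlap for MYBL2 in MSTO-211H, and near their DMSO level in MPP89 and MeT-5A, and RBL2 was highest in MSTO-211H.

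Compared per kilobase of exon (the union of all exons in GENCODE 44, a later annotation than the authors'), TFDP1 was the most abundant of the 10 in the 11 DMSO libraries of sensitive lines, with a median of 612 CP20M per kb. FOXM1 at 453 and MYBL2 at 394 followed, then RBL2 at 232, RB1 at 202 and RBL1 at 96.9. The MuvB subunits were lowest, with LIN54 at 72.9, LIN37 at 52.8, LIN9 at 33.8 and LIN52 at 27.7. Under palbociclib TFDP1 stayed first, at 522, RBL2 at 207 and RB1 at 155 came next, and FOXM1 at 84.2 and MYBL2 at 65.6 stood below them. The union of exons includes rare transcripts, so these ranks are approximate.

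MYBL2 and FOXM1 fell most under palbociclib. Over the 11 pairs of libraries from the sensitive lines, 4 of the 10 genes were called lower and none higher (fold above 1.5 and a Benjamini-Hochberg adjusted p under 0.05 in limma with the experiment as a block), where 9.37% of all genes were called lower and 5.58% higher. The median of the 10 log2 changes was -0.45, and that of all genes was -0.11. The 4 were MYBL2, FOXM1, RBL1 and LIN9, and each was lower in 11 of 11 pairs. The other 6 genes did not pass the fold threshold.

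MYBL2, the B-MYB subunit of MMB, went from 1095, 1012 and 1205 CP20M to 26, 63 and 28 in H2452, from 1513 and 945 to 203 and 114 in H2052, and from 2417, 1655 and 1790 to 325, 412 and 218 in H28. In MSTO-211H its values were 483, 173 and 656 with DMSO and 274, 25 and 182 with palbociclib. The groups did not overlap in H2052, H2452 and H28, and in MSTO-211H the second DMSO library was below palbociclib libraries 1 and 3. The change over the 11 pairs was -2.94 ± 0.33 (log2, SE), 7.67-fold, with an adjusted p of 1.75e-05 in limma.

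FOXM1, the activator that joins MMB in G2, went from 2637, 2148 and 2614 CP20M to 188, 224 and 154 in H2452, and from 3056 and 1511 to 705 and 391 in H2052. In H28 it went from 3116, 2229 and 2812 to 561, 688 and 433, and in MSTO-211H from 1196, 830 and 2115 to 701, 203 and 414. DMSO and palbociclib libraries were apart in all 4 lines. The change was -2.44 ± 0.24 (log2, SE), 5.43-fold, with an adjusted p of 7.81e-06 in limma.

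RBL1, the pocket protein p107, was the only one of the 3 pocket proteins called over the 11 pairs. It went from 577, 527 and 603 CP20M to 133, 165 and 112 in H2452, from 984, 853 and 914 to 401, 501 and 354 in H28, from 1022 and 541 to 510 and 392 in H2052, and from 290, 212 and 363 to 176, 182 and 194 in MSTO-211H. All 4 lines had every palbociclib library below every DMSO library. The change was -1.14 ± 0.18 (log2, SE), 2.21-fold, with an adjusted p of 0.000176 in limma.

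RBL2, which with E2F4 makes up most DREAM in resting cells, had no call over the 11 pairs. It was at 1879, 2396 and 1942 CP20M with DMSO and 1910, 2327 and 1678 with palbociclib in H2452, and at 1142, 1463 and 1367 against 1286, 1481 and 1187 in H28. These groups overlapped. In H2052 it went from 1375 and 1651 to 1034 and 1104, and in MSTO-211H from 4301, 5142 and 4607 to 2148, 3478 and 2578, with no overlap in either line. Over the 11 pairs its change was -0.33 ± 0.10 (log2, SE, adjusted p = 0.0186 in limma), which is under the fold threshold, and without the MSTO-211H pairs it was -0.15, with an adjusted p of 0.155.

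RB1 had a log2 change of -0.22 ± 0.08 (SE, adjusted p = 0.042 in limma), again under the fold threshold, and was lower in 7 of 11 pairs. Only H2452 had its palbociclib libraries, at 909, 955 and 1125 CP20M, apart from the DMSO libraries, at 1297 to 1403. In MSTO-211H RB1 was at 869 to 977 with DMSO and 887 to 1004 with palbociclib.

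TFDP1, the DP partner of the E2F factors, lay on opposite sides of its DMSO level. It went from 2013, 1772 and 2280 CP20M to 913, 1145 and 1017 in H2452, from 2876, 2290 and 2677 to 1955, 1801 and 1797 in H28, and from 5511 and 3899 to 3307 and 2947 in H2052. In MSTO-211H the palbociclib libraries, at 2423, 2697 and 2512, were all above the DMSO libraries, at 1993, 1923 and 2422, the nearest pair of values by 1 CP20M. The change in this line was 0.27 (log2), with an adjusted p of 0.155 in limma, and was not called. Over the 11 pairs the change was -0.43 ± 0.14 (log2, SE, adjusted p = 0.0223 in limma), under the fold threshold, and without the MSTO-211H pairs it was -0.69, with an adjusted p of 0.0004 in limma and past both thresholds.

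Of the MuvB subunits LIN9 was the one called, with a log2 change of -0.99 ± 0.18 (SE), 1.99-fold, and an adjusted p of 0.000677 in limma. It went from 143, 142 and 179 CP20M to 44, 89 and 23 in H2452, from 451, 440 and 421 to 280, 346 and 170 in H28, from 161 and 77 to 75 and 56 in H2052, and from 108, 85 and 150 to 51, 71 and 49 in MSTO-211H. The groups were apart in all 4 lines, narrowly so in H2052. In all 4 lines, LIN9 was lowest with palbociclib in the 10-day library. In H2052, however, the 10-day DMSO library was also the lower one, at 77 against 161. The paired change there was -0.40 at 10 days and -1.01 at 9 days. The change of LIN9 was -0.76 over the 7 pairs of 9 days and -1.40 over the 4 pairs of 10 days. The adjusted p in limma was 0.00941 and 0.0384. The difference was not tested, and the day cannot be told apart from the experiment.

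LIN52, the subunit whose phosphorylation by DYRK1A favours DREAM, had a log2 change of -0.47 ± 0.13 (SE, adjusted p = 0.00825 in limma) and was lower in 10 of 11 pairs. It went from 137 to 144 CP20M down to 74 to 92 in H2452, and stood at 97 to 126 with DMSO and 97 to 132 with palbociclib in MSTO-211H. Without MSTO-211H the change was -0.69, with an adjusted p of 0.000380 in limma and past both thresholds. LIN54, the DNA-binding subunit, changed by -0.36 ± 0.07 (log2, SE, adjusted p = 0.00149 in limma) and was lower in all 11 pairs, in 1 of them by less than 0.01. LIN37 was the one gene of the 10 with a positive value, 0.13 ± 0.08 (log2, SE, adjusted p = 0.196 in limma), higher in 8 of 11 pairs. In H2452 it went from 234, 231 and 213 to 307, 275 and 303 CP20M with no overlap.

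The p-values of these small changes depended on the unit of the test, and their sizes on how the libraries were scaled. With the 4 line means as units, the adjusted p in limma was 0.0774 for LIN54, 0.0909 for LIN52, 0.164 for TFDP1, 0.169 for RBL2 and 0.230 for RB1. With median-of-ratios scaling the median of all genes moved from -0.11 to 0.06 (log2), and the share of calls that were lower from 62.7% to 34.4%. The 4 genes called remained past both thresholds, with MYBL2 at -2.76, FOXM1 at -2.25, RBL1 at -0.95 and LIN9 at -0.82. RB1 was then at -0.03, RBL2 at -0.13, LIN54 at -0.17, TFDP1 at -0.23, LIN52 at -0.30 and LIN37 at 0.32. The fits without MSTO-211H, in which TFDP1 and LIN52 passed both thresholds, were run on the deposited scaling only. With upper-quartile scaling the share of calls that were lower was 37.1%. LIN37 also shares its whole locus, on the same strand, with a longer annotated gene, and RB1, RBL1, RBL2, LIN54 and FOXM1 overlap genes on the opposite strand. No strand setting would keep reads of LIN37 apart from those of that longer gene. Smaller genes on the same strand also lie within RB1, RBL1, RBL2, LIN52 and LIN54. For neighbours on the opposite strand, the strand setting of the authors' counting is not given in the sources used here. Reads of all such neighbours may therefore not be fully kept apart.

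**Figure D2:**
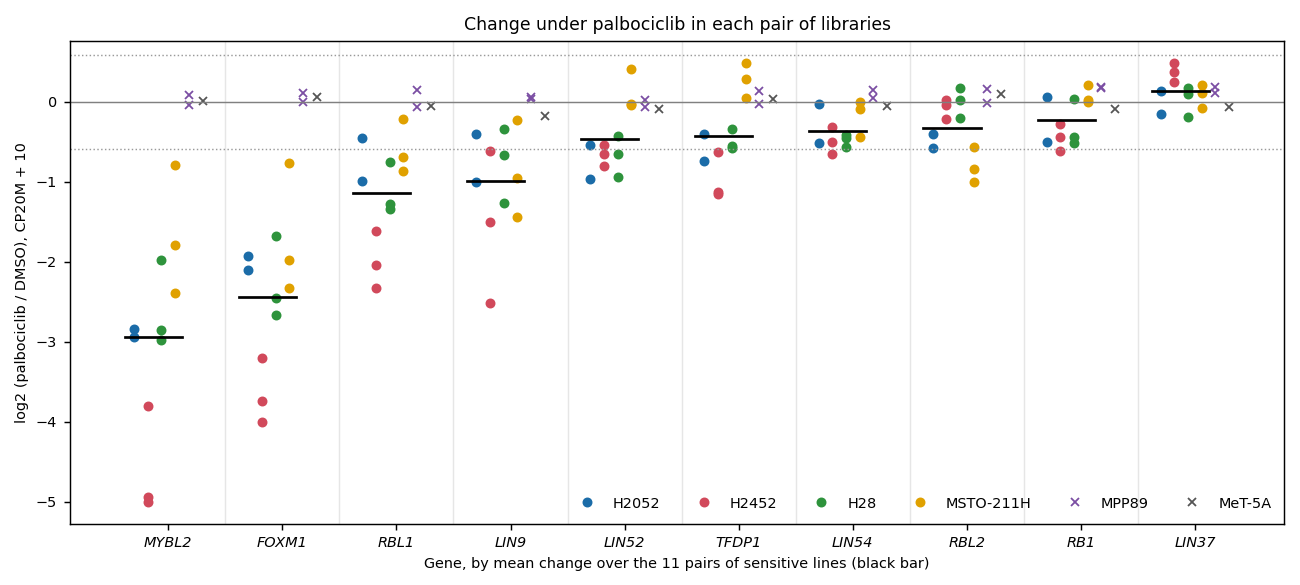
Change of each gene in each pair of libraries, as log2 of palbociclib over DMSO on CP20M + 10, coloured by line; circles are sensitive lines, crosses resistant ones, black bars the means over the 11 sensitive pairs and dotted lines a fold of 1.5. MYBL2 and FOXM1 lie lowest in H2452, and TFDP1 is above 0 in the 3 pairs of MSTO-211H.

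The size of the response differed among the 4 sensitive lines for 6 of the 10 genes by the F test in limma, where 37.1% of all genes did. They were TFDP1 (adjusted p = 0.00215), MYBL2 (0.00296), RBL2 (0.00462), RBL1 (0.00644), FOXM1 (0.00939) and LIN52 (0.0315). MYBL2 changed by -4.58 in H2452 and by -1.66 in MSTO-211H (means of 3 pairs, log2), and RBL1 by -1.99 and -0.59. RBL2 went the other way round, by -0.08 in H2452 and -0.00 in H28 (0.12 and 0.13 with median-of-ratios scaling), -0.49 in H2052 and -0.80 in MSTO-211H. In H2052, where the median of all genes was -0.24, RBL2 was at -0.18 with median-of-ratios and -0.13 with upper-quartile scaling. In MSTO-211H RBL2 was then at -0.62 and -0.65. RB1, LIN9, LIN37 and LIN54 did not pass this test. Without the replicate block, 2 of the 6, RBL1 and TFDP1, were called, and without a filter on low values FOXM1 and LIN52 were not.

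Line by line, H2452 had 5 genes called lower, RBL1, TFDP1, LIN52, MYBL2 and FOXM1, against 10.8% of all genes lower and 6.04% higher. The call of LIN52 in H2452, at -0.67, was lost in 7 of 11 alternatives, among them median-of-ratios (-0.48) and upper-quartile scaling (-0.50). H28 had 3, RBL1, MYBL2 and FOXM1, against 7.34% lower and 5.89% higher. H2052, with 2 pairs, had MYBL2 and FOXM1, against 13.0% lower and 4.67% higher. MSTO-211H had RBL2 and FOXM1, against 7.94% lower and 5.90% higher, FOXM1 at an adjusted p of 0.0498 and MYBL2 outside the threshold at 0.0529 in limma. None of the 10 was called higher in any line. These calls rest on 2 or 3 pairs. Without the replicate block FOXM1 was not called in H2052 or MSTO-211H. Leaving out any pair of H28 or of MSTO-211H, or pair 1 or 3 of H2452, left 0 of the 10 called, and 0 genes of the whole matrix, whereas leaving out pair 2 of H2452 left 4. The share of calls that were lower moved with median-of-ratios and upper-quartile scaling from 73.5% to 29.3% and 27.4% in H2052, from 64.1% to 38.6% and 39.7% in H2452, from 55.5% to 38.5% and 50.3% in H28, and from 57.3% to 32.5% and 35.0% in MSTO-211H.

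The balance between pocket proteins was followed in each library as a ratio. On the log2(CP20M + 10) scale the RBL2 to RBL1 ratio rose by 0.81 ± 0.92 (SD, n = 11 pairs), being higher in 8 of 11 (exact sign-flip permutation test, two-sided, p = 0.0195, adjusted over 3 ratios to 0.0293). By line it was higher by 1.92 ± 0.30 in H2452 and 1.12 ± 0.34 in H28 (SD, n = 3 pairs each), and the change was 0.23 ± 0.50 in H2052 (n = 2) and -0.21 ± 0.21 in MSTO-211H (n = 3). With the 4 line means as units the test gave an exact p of 0.25, where 0.125 is the smallest it can give. The RBL2 to RB1 ratio changed by -0.10 ± 0.61 (SD, n = 11 pairs, exact p = 0.568), being higher in 6 pairs and -0.87 ± 0.13 in MSTO-211H.

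As shares of the summed pocket protein levels per kilobase of exon, RBL1 went from 17.05% ± 1.70 to 5.42% ± 0.66 in H2452 and from 21.5% ± 1.7 to 12.6% ± 0.9 in H28 (SD, n = 3 each). It was at 6.34% ± 1.78 and 6.07% ± 0.96 in MSTO-211H (n = 3) and at 30.0% ± 8.6 and 25.2% ± 3.7 in H2052 (n = 2), differences within the spread. RBL2 went from 45.4% ± 4.4 to 57.5% ± 5.3 in H2452, but from 75.1% ± 3.3 to 64.6% ± 5.4 in MSTO-211H, where RB1 went from 18.5% ± 2.0 to 29.3% ± 4.6. RB1 made up 10.4% ± 0.7 in MPP89 with DMSO and 11.3% ± 1.6 with palbociclib (SD, n = 2). These shares are of mRNA and say nothing of the proteins or their phosphorylation.

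MYBL2 relative to the mean log2 level of LIN9, LIN37, LIN52 and LIN54 fell by 2.51 ± 1.15 (log2, SD, n = 11 pairs), in 11 of 11 pairs. The exact sign-flip permutation test gave 0.000977, the smallest p that 11 pairs allow, and 0.00293 when adjusted over the 3 ratios. The fall was 4.00 ± 0.50 in H2452, 2.46 ± 0.40 in H2052, 2.14 ± 0.40 in H28 and 1.45 ± 0.92 in MSTO-211H (SD, n = 3, 2, 3 and 3 pairs). With the 4 line means the exact p was 0.125, again the smallest possible.

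**Figure D3:**
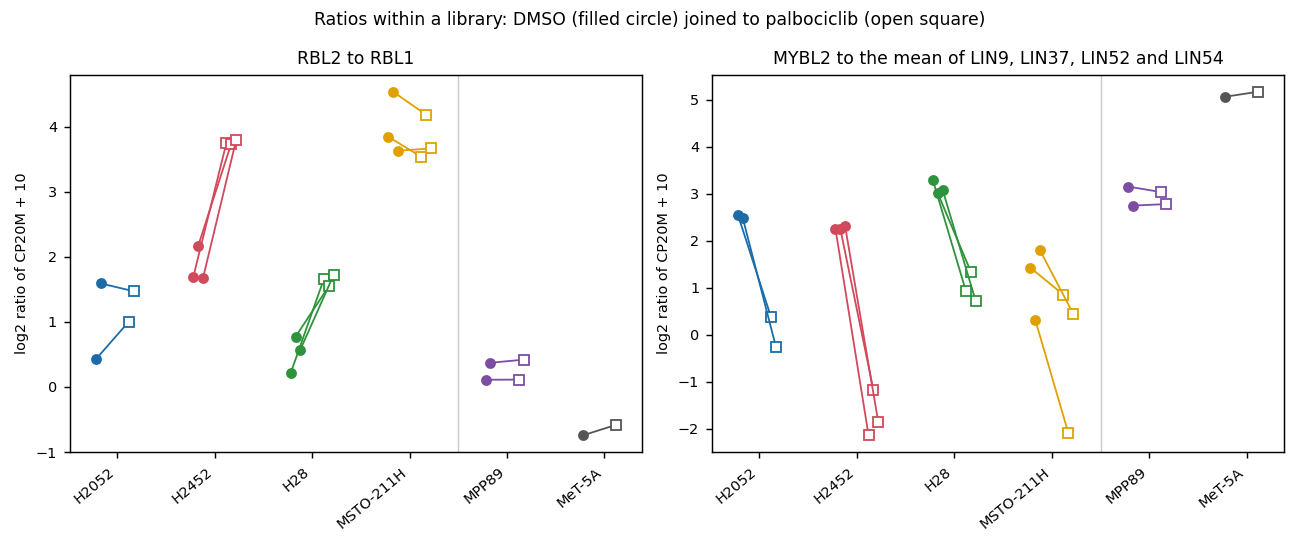
Ratios within a library on the log2(CP20M + 10) scale, by line, with each DMSO library (filled circle) joined to its palbociclib library (open square). The RBL2 to RBL1 ratio is higher with palbociclib in every pair of H2452 and H28 and in 1 of 3 pairs of MSTO-211H, where the mean is -0.21, and the ratio of MYBL2 to the MuvB subunits fell in all 11 pairs of the sensitive lines while the mean changes were -0.04 in MPP89 and 0.11 in MeT-5A.

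In the resistant lines none of the 10 genes was called over 3 pairs by limma, and 0% of all genes were called lower and 0% higher, although 1258 genes had an unadjusted p under 0.05. MYBL2 was at 3704 and 2865 CP20M with DMSO and 3605 and 3046 with palbociclib in MPP89, and at 19039 and 19167 in MeT-5A. FOXM1 was at 2599 and 2522 against 2598 and 2722 in MPP89, and at 5430 against 5653 in MeT-5A. RBL1 was at 828 and 875 against 921 and 837, and at 3241 against 3116. For all 3 genes the DMSO and palbociclib libraries of MPP89 overlapped. None of the 10 had an unadjusted p under 0.05.

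Tested as a difference between the sensitive and the resistant pairs, the response of 2 of the 10 genes was called lower in the sensitive lines, where 5.62% of all genes were called lower and 1.13% higher. The 3 resistant pairs were all of 9 days, whereas 7 sensitive pairs were of 9 days and 4 of 10 days. Over the 9-day sensitive pairs alone MYBL2 changed by -2.80 and FOXM1 by -2.27 (log2). The part of the duration in the difference was not tested. MYBL2 differed by -2.96 ± 0.66 (log2, SE, adjusted p = 0.0136 in limma) and FOXM1 by -2.50 ± 0.49 (adjusted p = 0.00785). RBL1 differed by -1.15 ± 0.35, with an adjusted p of 0.0502 that ranged from 0.0262 to 0.2003 over 22 alternatives, 8 of which called it. Both calls were lost when the MeT-5A pair or either MPP89 pair was left out, with adjusted p of up to 0.0803 for MYBL2 and 0.0566 for FOXM1. The 1202 calls over all genes then became 172 without MeT-5A and 192 and 234 without MPP89 pairs 1 and 2. The share of all calls that were lower moved from 83.2% to 42.8% with median-of-ratios and 46.6% with upper-quartile scaling.

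After 48 hours of washout MYBL2 and FOXM1 rose again. They were the 2 of the 10 genes called higher than in the palbociclib library of the same experiment (limma, 4 lines with the experiment as a block), where 1.40% of all genes were called higher and 0% lower. Each line gave 1 library per condition. MYBL2 went from 28 to 700 CP20M in H2452, from 114 to 863 in H2052, from 182 to 640 in MSTO-211H and from 218 to 600 in H28, a change of 2.55 ± 0.46 (log2, SE, adjusted p = 0.0292). FOXM1 went from 154 to 2591, from 391 to 1726, from 414 to 1356 and from 433 to 1082 in the same lines, a change of 2.27 ± 0.38 (adjusted p = 0.0241). Each was higher in 4 of 4 lines, but leaving out any line left neither of them called, as did the fit without the replicate block. Over 12 alternatives the adjusted p in limma ranged from 0.0252 to 0.263 for MYBL2 and from 0.0208 to 0.222 for FOXM1.

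Levels after washout ranged widely between lines, which 1 library each does not allow to be tested. MYBL2 reached 97.6% of its DMSO value in MSTO-211H, 91.3% in H2052, 58.1% in H2452 and 33.5% in H28. FOXM1 reached 114% in H2052, 99.1% in H2452, 64.1% in MSTO-211H and 38.5% in H28. In H28, RBL1 at 428 CP20M after washout against 354 before it and 914 with DMSO, and LIN9 at 194 against 170 and 421, were likewise under 50% of the DMSO library. In H2452, by contrast, LIN9 went from 23 back to 141 CP20M with 179 in DMSO, TFDP1 from 1017 to 2120 with 2280, and RBL1 from 112 to 377 with 603.

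In the lines where it had been lower in the deposited values, RBL2 stayed near its palbociclib level. It stood at 2416 CP20M after washout in MSTO-211H, against 2578 with palbociclib and 4607 with DMSO, and at 1071 in H2052, against 1104 and 1651. Washout and palbociclib differed by -0.03 ± 0.13 over 4 lines (log2, SE, adjusted p = 0.96 in limma). Against DMSO the washout libraries had none of the 10 genes called, where 2.95% of all genes were called lower and 2.81% higher (51.3% of calls lower, and 27.8% with median-of-ratios scaling). These 1026 calls became 0 without the replicate block, 401 without a filter, and 232, 645 and 245 without H2052, H2452 and MSTO-211H. At an unadjusted p under 0.05, 1 of the 10 differed, RBL2, where 5265 of all 17803 genes did. RBL2 was at -0.49 ± 0.13 against DMSO (log2, SE, adjusted p = 0.0385), lower in 4 of 4 lines and under the fold threshold, with adjusted p from 0.0361 to 1 over 12 alternatives. MYBL2 was at -0.63 ± 0.46 (adjusted p = 0.393) and FOXM1 at -0.46 ± 0.38 (adjusted p = 0.459), estimates whose errors do not show that these genes were back at the DMSO level.

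**Figure D4:**
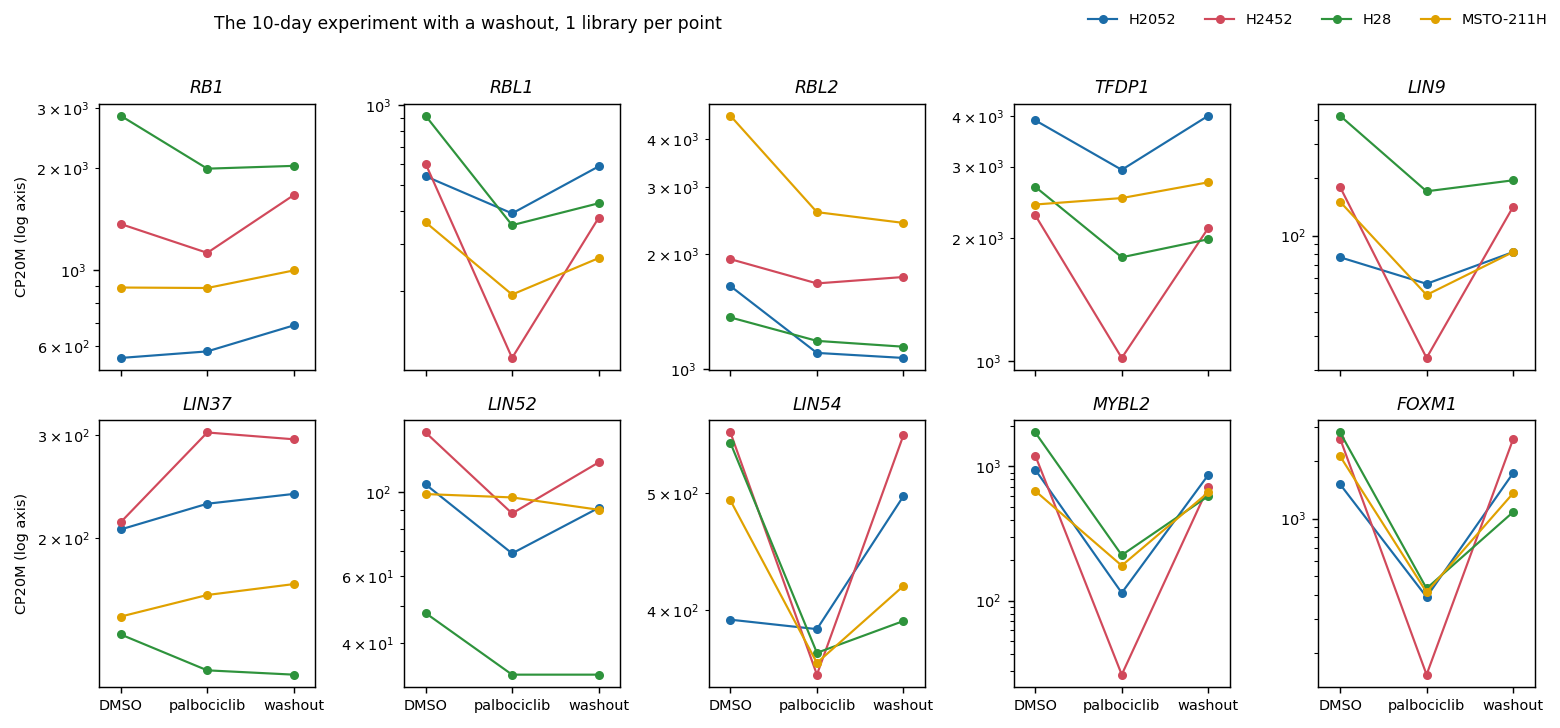
Level of each gene in the DMSO, palbociclib and washout libraries of the 10-day experiment, in CP20M on a log axis, with 1 library per point and 1 line per colour. MYBL2 and FOXM1 rise after washout in all 4 lines, least in H28, and RBL2 stays near its palbociclib level.

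Among other subunits, relatives and regulators of the complexes (RBBP4, TFDP2, E2F4, E2F5, MYBL1, DYRK1A, LATS1 and LATS2), 1 of 8 was called over the 11 pairs, a share near the 9.37% of all genes called lower and 5.58% called higher. E2F5, a repressor-type E2F that can enter DREAM, changed by -0.65 ± 0.10 (log2, SE, adjusted p = 0.00015 in limma). The median of the 8 changes was -0.37. DYRK1A, the kinase that phosphorylates LIN52, was at -0.51 ± 0.06 (adjusted p = 3.4e-05) and RBBP4, the MuvB subunit shared with chromatin complexes, at -0.47 ± 0.07 (adjusted p = 0.000117), both under the fold threshold. MYBL1, the A-MYB relative of MYBL2, changed in opposite ways, by -1.49 ± 0.17 in H2452 and 1.37 ± 0.20 in MSTO-211H (adjusted p of 0.016 and 0.0363 in limma), and its response differed among lines (adjusted p = 0.00211). In single lines E2F4 was also called lower in H2052 (-0.77), RBBP4 in H2452 (-0.61) and E2F5 (-0.75), DYRK1A (-0.73) and LATS1 (-0.78) in MSTO-211H, while TFDP2 was called higher in H28 (0.93) and LATS2, a kinase that acts upstream of DYRK1A, in MSTO-211H (1.21).

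Genes known as targets of these complexes were counted from 2 lists. Of 20 G2 and mitosis genes, 20 were called lower over the 11 pairs, with a median change of -2.54 (log2). CDK1 at -3.12 and KIF20A at -2.98 changed most, and CENPA at -0.90 and CDC25C at -1.25 least. Of 16 G1/S genes, 15 were called lower, with a median of -1.10. RRM2 at -2.69 and TYMS at -1.91 changed most, and MCM3 at -0.68 and CCNE1, the one not called, at 0.02 least. The lists were chosen with earlier results of these data known, so their direction is not independent evidence.

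In MSTO-211H the 2 lists had different counts, a difference that was not tested. There 6 of 20 G2 and mitosis genes were called lower, with a median of -2.13, but 0 of 16 G1/S genes were called lower and 1, CCNE1, higher, with a median of -0.16 against -0.11 for all genes. Of all genes, 7.94% were called lower and 5.90% higher in this line. The 3 pairs of this line differed. In the 10-day pair 15 of the 16 G1/S genes were lower, with a median of -0.84, whereas in the 9-day pairs 7 and 8 were lower, with medians of 0.09 and 0.14. The medians of the G2 and mitosis genes were -2.48 in the 10-day pair and -0.77 and -2.78 in the 9-day pairs. At an unadjusted p under 0.05, 18 of the G2 and mitosis genes and 7 of the G1/S genes were lower in this line. Of all 17803 genes, 7188 had such a p, in either direction. In H2452 the medians were -3.67 and -1.71, in H2052 -2.39 and -1.08, and in H28 -1.79 and -1.12. MYBL2, at -1.66, and FOXM1, at -1.69, lay near the G2 and mitosis genes of MSTO-211H, and RBL1, at -0.59, between the lists. After washout 19 of 20 G2 and mitosis genes and 6 of 16 G1/S genes were called higher than with palbociclib, where 1.40% of all genes were. Against DMSO 0 of either list were called by the same test, where 2.95% of all genes were called lower and 2.81% higher. At an unadjusted p under 0.05 there were 1 and 4 genes of the lists, and 5265 of all 17803.

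**Figure D5:**
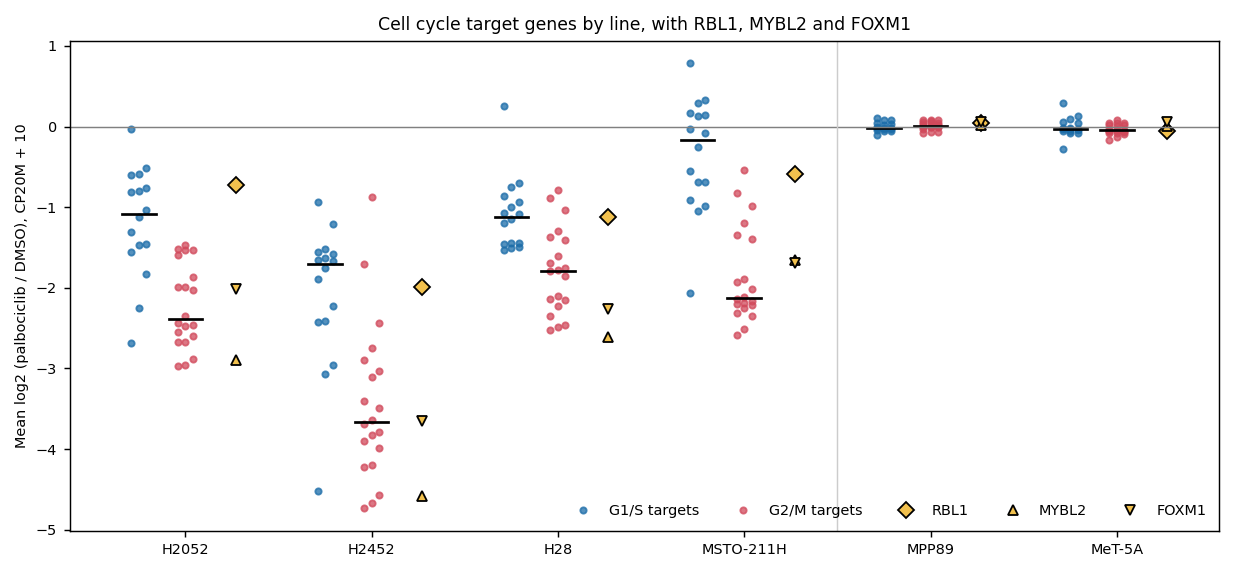
Mean change of each target gene by line, as log2 of palbociclib over DMSO on CP20M + 10, with black bars at the list medians and RBL1, MYBL2 and FOXM1 beside them. In MSTO-211H the means over 3 pairs have a median of -0.16 for the G1/S genes, which hides a median of -0.84 in the 10-day pair, and of -2.13 for the G2 and mitosis genes, and in MPP89 and MeT-5A both lists lie near 0.

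Across all 33 libraries, with each line centred on its own mean, MYBL2 and FOXM1 varied together (Pearson's r = 0.98), as did RBL1 with FOXM1 (0.94), MYBL2 (0.92) and LIN9 (0.91). RBL2 had lower values, from -0.35 with LIN37 to 0.42 with LIN9, among them 0.12 with MYBL2 and 0.23 with RBL1, and LIN37 was negative with all the others, from -0.37 to -0.02. The libraries share treatments, experiments and the scaling to a common total, so these values are descriptions. Of all genes tested, KIF18B (0.99), KIFC1 (0.99) and ANLN (0.98), which act in mitosis and cytokinesis, were most like MYBL2. STIP1 (0.81), EME1 (0.79) and HNRNPAB (0.79) were most like RB1. ZNF33A (0.93) and BBIP1 (0.92) followed for RBL2 after AC007342.6 (0.94), a transcript of unknown kind annotated at chr16:53478957-53481550 on the minus strand, inside the RBL2 locus at chr16:53433977-53491648, whose reads may be those of RBL2.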

How the data were processed

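RNA-seq was made from 33 libraries of 6 cell lines. The authors prepared directional paired-end libraries, trimmed reads with Trimmomatic 0.36, mapped them to GRCh38 with STAR 2.5.3, counted them per gene with HTSeq 0.9.1 (Ensembl annotation) and scaled each library to 20000000 reads. The deposited values are a normalized score (CP20M), rounded up to whole numbers, and not counts, so the authors' DESeq2 was not used. The column totals were 20007662 to 20021400.

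Genes at 100 CP20M or more in at least 1 library (17803) were put on the log2(CP20M + 10) scale and fitted by limma 3.58.1 in R 4.3.3 (lmFit and eBayes with trend). Calls needed a fold above 1.5 and a Benjamini-Hochberg adjusted p under 0.05, or the latter alone for F tests. Treated and control samples were paired within an experiment per the study's methods, and the experiment was a block. Deviations of same-numbered DMSO and palbociclib libraries from their group means correlated at r from 0.18 to 0.78 across genes. In the fits of single lines and in the F tests, p-values measure the spread between cultures of a line. In the other fits that pool pairs of several lines, they mix this spread with differences in response among the lines. In the washout fits, with 1 library per line and condition, they measure the spread between the 4 lines.

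The text names all 10 genes, called genes of the other subunits, the 2 largest and 2 smallest changes of each target list and the 3 genes most alike RBL2, MYBL2 and RB1. The classes of control libraries were compared after their values were seen. The genes and lists were chosen with earlier results of these data known. Ratios were compared with exact permutation tests. The fits were tested on simulated data. No 2 replicate libraries agreed at more than 4.33% of genes. Positions and exon lengths are from GENCODE 44 and promoter windows from RefSeq (GRCh38.p14). Alternatives were no block, pseudocounts of 1 and 50, other filters and scalings, no trend, line means, single days, and leaving out pairs, lines or libraries.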

Additional observations from a re-analysis of the deposited data

Results flagged for a closer look

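The response to palbociclib differed among the 4 sensitive lines, by the F test in limma, for RBL1 (adjusted p = 0.00644), RBL2 (0.00462), TFDP1 (0.00215), LIN52 (0.0315), MYBL2 (0.00296) and FOXM1 (0.00939). RBL2 was lower in the 3 pairs of MSTO-211H and the 2 of H2052 and near its DMSO level in H2452 and H28. With median-of-ratios scaling RBL2 was at -0.18 in H2052 (-0.49 as deposited) and at -0.62 in MSTO-211H (-0.80). In the deposited values RBL1, MYBL2 and FOXM1 had their largest change in H2452 and their smallest in MSTO-211H. TFDP1 was higher in 3 of 3 pairs of MSTO-211H and lower in 8 of 8 pairs of the other sensitive lines. In MSTO-211H alone its change was 0.27 (log2), with an adjusted p of 0.155 in limma. LIN52 lost this call without pair 1 of H2052, any H2452 pair, pair 1 of H28 or pair 2 or 3 of MSTO-211H, and without a filter on low values it and FOXM1 did.

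The response also differed between sensitive and resistant pairs, by the interaction term in limma, for MYBL2 (adjusted p = 0.0136) and FOXM1 (0.00785), lower in 11 of 11 sensitive pairs. Both calls were lost when either MPP89 pair or the MeT-5A pair was left out. With 2 resistant lines of different origin, the class cannot be told apart from the lines. The resistant pairs were all of 9 days, and 4 of the sensitive pairs were of 10 days. No group had enough libraries for a search for a single library far from the others.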

How the results depend on the processing

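Over the 11 pairs, MYBL2, FOXM1, RBL1 and LIN9 kept their direction and their calls in 26 of 26 alternatives, with limma adjusted p of up to 0.0424, 0.0282, 0.0396 and 0.0384. The number of the 10 genes called was 4 to 6 with pairs or lines left out. The fits of single lines were less stable. Without a filter, 0 of the 10 were called in each sensitive line, and 0, 5, 2 and 6 genes of the matrix for H2052, H2452, H28 and MSTO-211H. Leaving out a pair gave 0 to 4 called for H2452, 0 for H28 and 0 for MSTO-211H, and left H2052 with 1 pair, a value with no test. In H2052, eBayes without trend gave 0 and a filter within the line 5. In MSTO-211H, a pseudocount of 1, median-of-ratios scaling, upper-quartile scaling and eBayes without trend each gave 1.

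Without the replicate block, H2052 had 1 gene called, MSTO-211H 1, the difference among lines 2 and washout against palbociclib 0, and no other count of the 10 moved by over 1.5 times. Counts over the whole matrix went from 6601 to 2612 for the difference among lines and from 250 to 0 for washout. That washout comparison gave 0 of the 10 without a filter, 1 (FOXM1) with upper-quartile scaling, and 0 to 0 with a line left out, where 0 to 104 genes of the matrix were called. The difference between sensitive and resistant lines ranged from 0 to 3 of the 10 with a pair left out. Over the 11 pairs the matrix count went from 2663 to 1687 with a pseudocount of 50 and to 1471 with line means. The cause of these moves was not tested. With the 4 line means as units, the change of the RBL2 to RBL1 ratio was 0.76 and that of MYBL2 to the MuvB core -2.51, neither past the threshold, which 4 lines cannot reach.

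The values that changed sign belonged to genes not called. Under median-of-ratios and upper-quartile scaling they were LIN37 (0.30 and 0.34), LIN54 (0.0397 and 0.0843) and RB1 (0.0905 and 0.14) in H2052, RBL2 in H2452 (0.12 and 0.11) and in H28 (0.13 and 0.0471), LIN37 after washout against palbociclib (-0.12 and -0.18), and, in the resistant pairs, MYBL2 (-0.00451 and -0.0117) and RBL1 (-0.0133 and -0.0204). Upper-quartile scaling also turned LIN52 after washout against palbociclib (-0.00761), and median-of-ratios TFDP1 after washout against DMSO (0.0185). With a pair, line or library left out, values that turned ranged in H28 from -0.0923 to 0.0937 for RBL2 and from -0.0438 to 0.138 for LIN37, and in MSTO-211H from -0.0349 to 0.191 for LIN52. In the resistant pairs they ranged from -0.0599 to 0.0476 for RBL1, from -0.0706 to 0.0458 for LIN9 and from -0.0147 to 0.0489 for MYBL2. LIN37 ranged from -0.0169 to 0.108 in the difference between sensitive and resistant lines and from -0.00219 to 0.0297 after washout against palbociclib. After washout against DMSO, RB1 ranged from -0.0138 to 0.252, TFDP1 from -0.164 to 0.0377 and LIN54 from -0.238 to 0.0313. Values under 100 CP20M, where few reads stand behind a value, occurred in 17 of 33 libraries for LIN52, 12 for LIN9 and 4 for MYBL2.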
